A study of Mus musculus with 23 samples.

Results

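Expression of 10 genes of the vascular endothelium (Plvap, Gpihbp1, Car4, Pecam1, Cdh5, Kdr, Tek, Thbd, Vwf and Ednrb) was examined in whole right lungs of CF-/- mice, called CF, and of CF+/+ mice, called control. The 10 symbols are a list of capillary and vessel genes. Every probe set annotated with 1 symbol among them was read, which gave 14 of 34945 such probe sets and 10 of 18193 genes. The groups were BALB/c (BALB) CF females (3 arrays), BALB control females (3), BALB CF males (3), BALB control males (3), C57BL/6 (B6) CF females (3), B6 control females (3), B6 CF males (2) and B6 control males (3), 23 arrays in all. Ages, the targeted allele and housing are not in the labels. The labels also leave unsaid whether each array stands for its own mouse. The spread that the p-values rest on is thus that of the arrays, and it may be technical. Values are log2 signals, on which a difference of 1 is a doubling. The 7 genes other than Car4, Cdh5 and Ednrb had 1 probe set each. For these 3 the brightest probe set was used, and the others are given where they differ in call or sign.

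The gas-exchange capillaries of the lung hold general capillary cells, which carry Plvap and Gpihbp1, and aerocytes, broad thin cells that carry Car4 and Ednrb and lie against the alveolar type 1 epithelium. Pecam1 and Cdh5 mark the junctions between endothelial cells of all vessels. Kdr and Tek are the receptors through which vascular endothelial growth factor (VEGF) and the angiopoietins act on the vessel wall. Thbd and Vwf hold the balance between anticoagulant and clotting functions of the vessel surface. Some of these genes are not private to endothelium: Vwf is also made by megakaryocytes, and Pecam1 is also found on platelets and leukocytes.

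Promoters of Car4, Kdr, Tek and Ednrb are in the RefSeq promoter table (assembly GRCm38.p6, from the B6 strain), and those of Plvap, Gpihbp1, Pecam1, Cdh5, Thbd and Vwf are not shown. These 4 are shown because the table holds them, and all 4, like Gpihbp1 and Pecam1, were higher in BALB than in B6 CF lungs. Each runs 5′ to 3′ from 250 bases before to 50 bases after the gene start, at chr11:84957504-84957803 (plus strand) for Car4, chr5:75978406-75978705 (minus strand) for Kdr, chr4:94739039-94739338 (plus strand) for Tek and chr14:103843652-103843951 (minus strand) for Ednrb. Capitals mark matches, on either strand, to letters of motifs for factor families of endothelial and stress regulation.
Kdr: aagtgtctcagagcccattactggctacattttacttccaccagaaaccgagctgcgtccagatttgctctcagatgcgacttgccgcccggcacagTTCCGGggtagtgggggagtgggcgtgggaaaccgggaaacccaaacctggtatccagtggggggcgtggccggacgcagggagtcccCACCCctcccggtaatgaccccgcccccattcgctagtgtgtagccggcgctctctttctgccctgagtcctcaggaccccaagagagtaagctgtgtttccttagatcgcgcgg
Tek: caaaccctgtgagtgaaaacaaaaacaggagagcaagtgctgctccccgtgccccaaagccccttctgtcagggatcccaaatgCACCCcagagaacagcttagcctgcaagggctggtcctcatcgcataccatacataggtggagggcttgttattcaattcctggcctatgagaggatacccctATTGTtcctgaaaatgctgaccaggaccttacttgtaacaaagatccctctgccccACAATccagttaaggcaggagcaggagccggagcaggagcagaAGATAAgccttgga
Car4: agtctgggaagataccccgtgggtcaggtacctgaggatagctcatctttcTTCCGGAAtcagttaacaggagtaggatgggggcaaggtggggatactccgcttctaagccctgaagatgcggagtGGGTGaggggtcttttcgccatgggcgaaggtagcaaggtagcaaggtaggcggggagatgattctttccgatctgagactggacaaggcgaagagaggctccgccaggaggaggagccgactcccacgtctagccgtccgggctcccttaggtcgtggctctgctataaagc
Ednrb: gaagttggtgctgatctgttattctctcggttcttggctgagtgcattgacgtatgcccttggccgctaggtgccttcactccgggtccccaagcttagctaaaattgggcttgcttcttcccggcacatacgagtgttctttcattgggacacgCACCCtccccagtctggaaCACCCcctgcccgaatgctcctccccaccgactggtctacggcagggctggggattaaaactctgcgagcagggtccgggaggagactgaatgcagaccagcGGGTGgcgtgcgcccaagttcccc
The ETS letters CCGGAA were in the Kdr promoter and, as 2 overlapping matches on opposite strands, in that of Car4. They were in 14.9% of all 32851 promoters of the table. The GATA letters AGATAA were in Tek alone (11.2% of all promoters), as were the SOX letters ACAAT, with 2 matches (31%). The KLF letters CACCC were in all 4 promoters, 3 times in Ednrb, and in 57.5% of all promoters. The ETS letters AGGAAG (35.4% of all promoters) and the heat shock element GAANNTTC (7.86%) were in none of the 4. No set of these letters other than CACCC was shared by all 4 sequences.

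Cftr, the gene that the genotype names, read 3.49 to 4.42 in BALB CF lungs and 5.40 to 5.85 in BALB control lungs (difference -1.67, adjusted p = 6.44e-07). In B6 it read 3.86 to 4.31 in CF and 4.04 to 4.58 in control lungs (-0.22, adjusted p = 0.43), so Cftr checks the genotype labels in BALB only. Markers of lung epithelium were high on every array, with Sftpc of alveolar type 2 cells at 13.55 or above and Ager of type 1 cells at 12.93 or above. Some arrays were high in genes of other tissues. A gut list (8 genes) lay over 1 log2 unit above its median on 5 arrays (the gut-high arrays), namely BALB control females 1 and 3, BALB control males 1 and 2, and B6 control female 1. A squamous epithelium list (9 genes) did so on 5 arrays (the squamous-high arrays), the 3 BALB CF females, B6 control female 1 and B6 control male 3, and these 5 were also the ones high in a skeletal muscle list. Results below that change their call without these arrays are given both ways, for the 10 genes and for the genes named from other lists. Some are given by size alone, which says nothing of their call. Without the gut-high arrays BALB controls keep 1 array per sex, female 2 and male 3. What the fewer arrays and the gut levels each do to a call cannot be told apart there. Without the squamous-high arrays no BALB CF females remain. The CF effect in BALB is then that of males, and the strain difference in CF mice sets BALB males against B6 males. The strain difference of the CF effect then sets BALB males against both sexes of B6, so strain and sex are mixed in it.

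In CF lungs, 3 of the 10 endothelial genes fell in each strain and none rose, and Plvap was the gene shared by both. In BALB these were Plvap, Gpihbp1 and Vwf, and in B6 they were Plvap, Tek and Thbd. Without the arrays high in gut genes 1 gene (Plvap) passed in BALB and 2 in B6, and without those high in squamous genes again 1 and 2. Fewer endothelial cells and less RNA per cell cannot be told apart in whole lung. In BALB, 2.33% of all 45037 probe sets passed as lower, as did 4.54% of the 1322 genes at least as bright as the dimmest of the 10. In B6 these shares were 1.99% and 4.24%. The median change of the 10 genes was -0.15 in BALB and -0.10 in B6, against -1.73e-05 and -0.00466 over all probe sets. Tests are limma's across all probe sets, with Benjamini-Hochberg adjustment and a threshold of 0.05.

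Markers of other cells moved with genotype as well. The mean level of 11 leukocyte genes was 7.68 to 8.11 in BALB CF and 6.92 to 7.51 in BALB control lungs, and 7.62 to 8.27 in B6 CF and 7.19 to 7.74 in B6 control lungs. Of these genes 6 rose in BALB and 7 in B6. Of all probe sets 2.6% passed as higher in BALB and 2.72% in B6, and of the equally bright genes 2.72% and 4.84%. Of 7 proliferation genes, 3 rose in BALB and all 7 in B6, with medians of 0.27 and 0.85. The 8 heat shock genes all fell in BALB, and 4 of 8 fell in B6. In BALB, leaving out the arrays high in gut genes left 1 leukocyte, 0 proliferation and 4 heat shock calls, and leaving out those high in squamous genes left 4, 0 and 6. In B6 the counts were 8, 7 and 4 without the gut-high arrays and 5, 7 and 4 without the squamous-high ones. The mean level of the 8 heat shock genes was 7.81 to 9.35 in BALB CF and 8.47 to 10.92 in BALB control lungs. In B6 it was 8.15 to 9.09 in CF and 7.73 to 10.31 in control lungs. The part of these differences in the endothelial results was not tested.

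**Figure D1:**
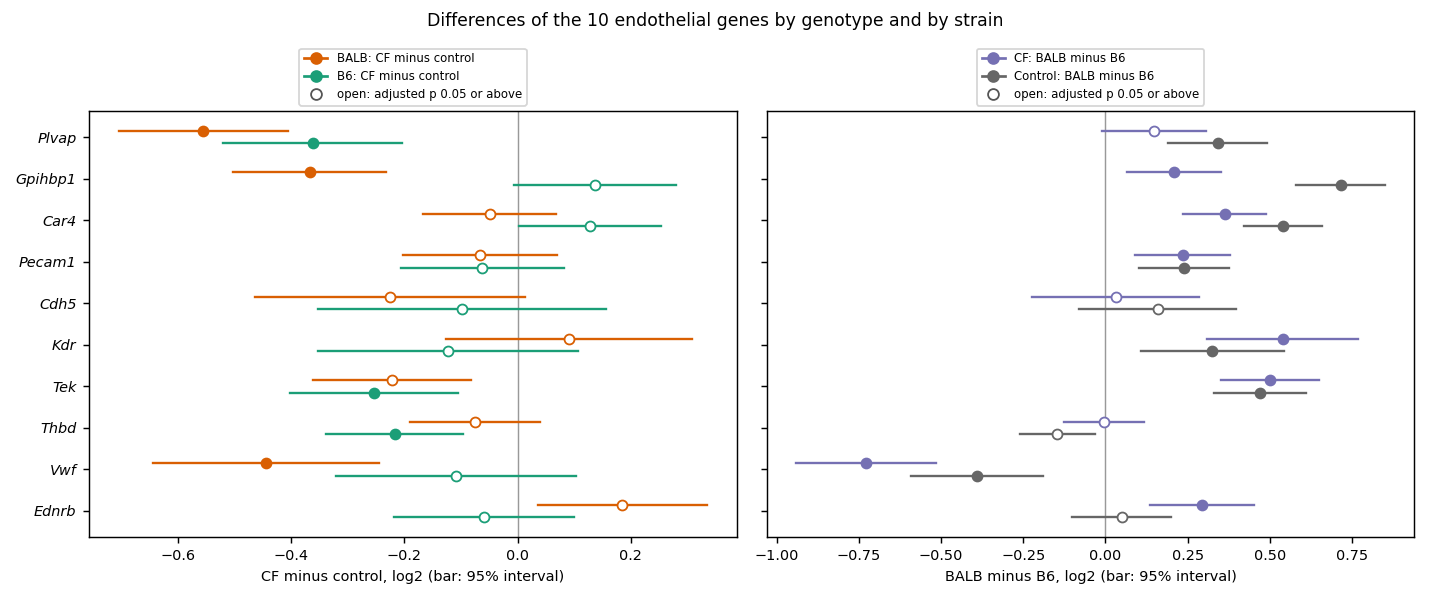
Differences of the 10 endothelial genes in log2 units, with bars for the 95% interval of the limma fit, for CF minus control in each strain (left) and BALB minus B6 in each genotype (right). Filled points passed at an adjusted p of 0.05, and Plvap lies left of 0 in both strains, at -0.56 in BALB and -0.36 in B6, while Gpihbp1 lies on opposite sides at -0.37 and 0.14.

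Plvap encodes the protein of the diaphragms that span endothelial fenestrae, caveolae and transendothelial channels. In BALB females it read 10.16, 10.20 and 10.19 in CF and 10.62, 10.66 and 10.67 in control lungs. In BALB males it read 10.13, 9.74 and 9.91 in CF and 10.56, 10.71 and 10.44 in control lungs. Every BALB CF array lay below every BALB control array, and the fall was by 0.56 (SE 0.07, adjusted p = 0.000121), a CF to control ratio of 0.68. In B6 females it read 9.99, 10.12 and 9.99 in CF and 10.05, 10.31 and 10.47 in control lungs. In B6 males it read 9.79 and 9.78 in CF and 10.24, 10.20 and 10.35 in control lungs. The B6 males did not overlap between genotypes, and the B6 females overlapped through control female 1. Plvap fell by 0.36 in B6 (SE 0.08, adjusted p = 0.00731), a ratio of 0.778. Without the arrays high in gut genes the change was -0.50 in BALB (adjusted p = 0.02) and -0.42 in B6 (adjusted p = 0.00276), and without those high in squamous genes it was -0.64 (adjusted p = 0.00171) and -0.40 (adjusted p = 0.00827). The call held in both strains under all 34 alternatives tried. The fall in BALB differed from that in B6 by -0.19 (95% interval -0.41 to 0.02, adjusted p = 0.395), which did not pass.

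Gpihbp1, the capillary protein that binds lipoprotein lipase and carries it to the vessel lumen, was the gene whose CF effect differed between strains. In BALB females it read 10.03, 10.14 and 10.02 in CF and 10.37, 10.41 and 10.49 in control lungs. In BALB males it read 9.83, 10.21 and 9.97 in CF and 10.36, 10.37 and 10.40 in control lungs. All 6 BALB CF arrays lay below all 6 BALB control arrays, and Gpihbp1 fell by 0.37 (SE 0.06, adjusted p = 0.00189), a ratio of 0.775. In B6 females it read 10.01, 9.92 and 9.80 in CF and 9.69, 9.71 and 9.68 in control lungs. In B6 males it read 9.90 and 9.58 in CF and 9.67, 9.66 and 9.71 in control lungs. B6 control arrays lay close together while B6 CF arrays spread on both sides of them, 4 above and 1 below. The B6 change was 0.14 (95% interval -0.01 to 0.28, adjusted p = 0.314). The BALB effect minus the B6 effect was -0.51 (SE 0.09, adjusted p = 0.0062), and this was the 1 of 10 genes to pass in that comparison, where 2.54% of all probe sets and 4.24% of the equally bright genes passed in either direction. Gut genes moved with the BALB result: their mean level was 4.32 to 5.01 in BALB CF and 4.69 to 6.28 in BALB control lungs. Without the arrays high in gut genes Gpihbp1 kept its size in BALB (-0.37) but not the call (adjusted p = 0.123), and the strain difference was -0.51 (adjusted p = 0.0562). Without the arrays high in squamous genes, which leaves BALB males, the change was also -0.37 (adjusted p = 0.0595). With gut and squamous levels as covariates it was -0.38 (adjusted p = 0.18), and the strain difference -0.52 (adjusted p = 0.115).

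**Figure D2:**
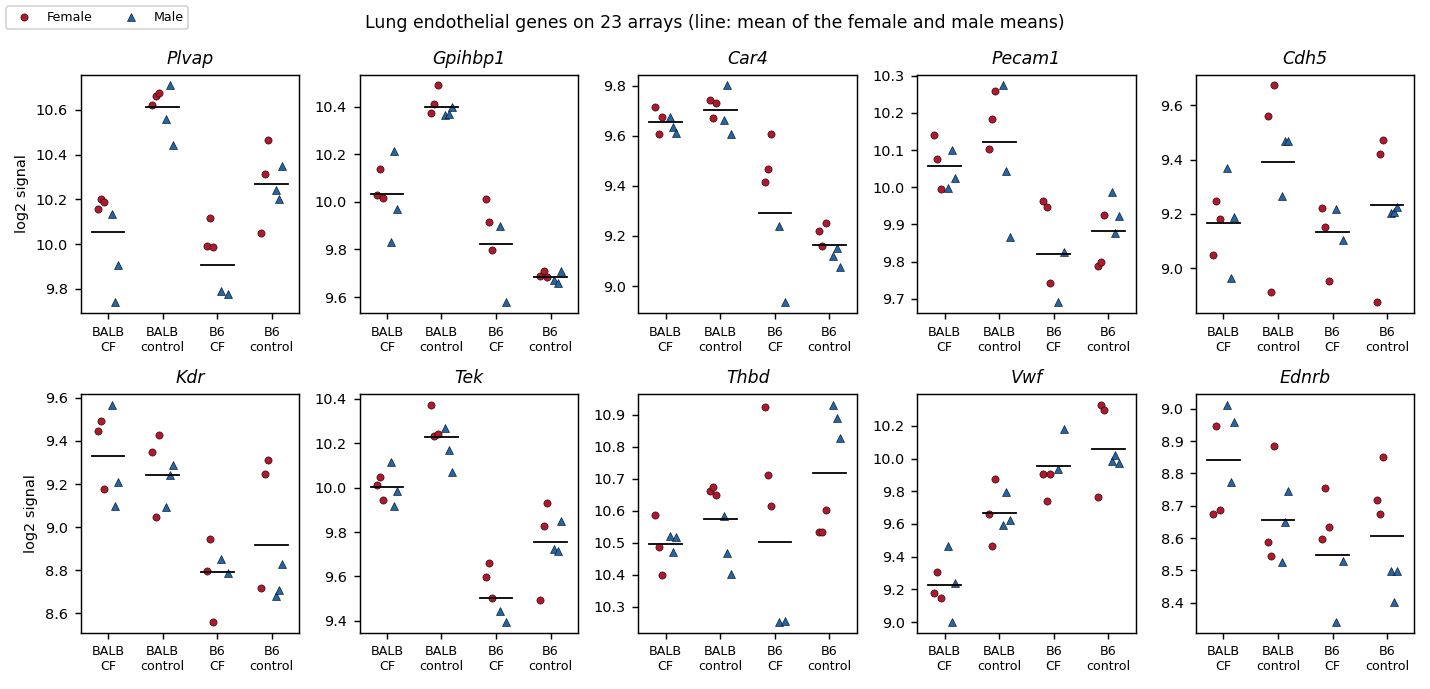
Log2 signal of the 10 endothelial genes on each of 23 arrays, with circles for females, triangles for males and a line at the mean of the female and male means. Plvap and Gpihbp1 do not overlap between BALB CF and BALB control arrays, Vwf is lowest on BALB CF arrays, and Thbd separates the 2 B6 CF males (10.25 and 10.26) from every other array.

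Car4, a membrane carbonic anhydrase that speeds carbon dioxide exchange at the capillary wall, passed in neither strain by genotype. It read 9.61 to 9.72 (median 9.66) in BALB CF and 9.61 to 9.80 (median 9.70) in BALB control lungs, a difference of -0.05 (95% interval -0.17 to 0.07, adjusted p = 0.734). In B6 females it read 9.41, 9.47 and 9.61 in CF and 9.22, 9.16 and 9.25 in control lungs. In B6 males it read 9.24 and 8.94 in CF and 9.12, 9.15 and 9.08 in control lungs. The B6 females did not overlap between genotypes, with a difference of 0.29 (SE 0.08) that did not pass (adjusted p = 0.112), and the B6 males lay around their controls. Over both sexes of B6 the difference was 0.13 (adjusted p = 0.274). The further Car4 probe set gave -0.07 in BALB and 0.15 in B6, neither past the threshold.

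Ednrb, the endothelin receptor that clears endothelin and prompts release of vasodilators, depended on the probe set. The brightest read 8.67 to 9.01 (median 8.86) in BALB CF and 8.52 to 8.88 (median 8.62) in BALB control lungs, a difference of 0.19 (SE 0.07, adjusted p = 0.155). The other probe sets passed in BALB, at 0.30 (SE 0.07, adjusted p = 0.0183) and 0.30 (SE 0.09, adjusted p = 0.0479), with signals of 6.94 to 7.34 in CF and 6.65 to 7.06 in control lungs on the brighter of them. All 3 probe sets thus had positive differences in BALB, with overlapping ranges, and 2 of 3 passed. The mean of the 3 probe sets passed as well, at 0.26 (adjusted p = 0.0253). In B6 the 3 differences were -0.06, -0.00 and -0.08, with adjusted p of 0.738 or more.

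Pecam1, the adhesion molecule of endothelial borders also known as CD31, showed no call by genotype. It read 9.99 to 10.14 (median 10.05) in BALB CF and 9.87 to 10.27 (median 10.14) in BALB control lungs, and 9.69 to 9.96 in B6 CF and 9.79 to 9.99 in B6 control lungs. The differences were -0.07 in BALB (95% interval -0.20 to 0.07) and -0.06 in B6 (-0.21 to 0.08). Cdh5, the cadherin of endothelial adherens junctions, read 8.97 to 9.37 (median 9.18) in BALB CF and 8.91 to 9.67 (median 9.47) in BALB control lungs. BALB control female 2, at 8.91, lay below the other BALB controls, which began at 9.27. The difference was -0.23 (95% interval -0.47 to 0.01, adjusted p = 0.311), and without that array it was -0.34 and passed (adjusted p = 0.0379). In B6 it was -0.10 (-0.35 to 0.16), with 8.95 to 9.22 in CF and 8.87 to 9.47 in control lungs. The dimmer Cdh5 probe set passed in neither strain (-0.12 and -0.22).

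Of the receptors, Tek fell in B6 CF lungs and just missed the threshold in BALB, and Kdr passed in neither. Tek, the angiopoietin receptor Tie2, read 10.01, 10.05 and 9.94 in BALB CF females and 10.37, 10.23 and 10.24 in BALB control females. In BALB males it read 10.12, 9.92 and 9.98 in CF and 10.27, 10.17 and 10.07 in control lungs. BALB females did not overlap between genotypes and BALB males did, and the difference of -0.22 (SE 0.07, adjusted p = 0.0619) missed the threshold. In B6 it read 9.60, 9.66 and 9.50 in CF females and 9.49, 9.83 and 9.93 in control females. In B6 males it read 9.44 and 9.40 in CF and 9.72, 9.71 and 9.85 in control lungs. The B6 males did not overlap, and the B6 females overlapped through control female 1, at 9.49. Tek fell by 0.25 in B6 (SE 0.07, adjusted p = 0.0442), and the strains differed by 0.03 (95% interval -0.17 to 0.24). The B6 call was lost on leaving out any of 10 of the 11 B6 arrays (all but control female 1) or any of 3 BALB arrays (control female 3, CF male 3 or control male 2), with adjusted p up to 0.127, and the BALB difference passed without B6 control female 1, B6 control female 3 or BALB control male 3 (adjusted p = 0.0219, 0.049 and 0.0468). The B6 call was also lost with median centring (adjusted p = 0.0646), with the B6 groups alone in the fit (adjusted p = 0.0923) and with gut and squamous levels as covariates (adjusted p = 0.0797). In BALB Tek passed under 5 other choices: array weights (-0.26, adjusted p = 0.0117), a mean-variance trend (adjusted p = 0.0363), dim probe sets left out (adjusted p = 0.04), median centring (adjusted p = 0.0409) and the mean of probe sets (adjusted p = 0.0452). Kdr, the main signalling receptor for VEGF-A, read 9.10 to 9.57 (median 9.33) in BALB CF and 9.05 to 9.43 (median 9.26) in BALB control lungs. In B6 it read 8.56 to 8.95 in CF and 8.68 to 9.31 in control lungs. The differences were 0.09 in BALB (95% interval -0.13 to 0.31) and -0.12 in B6 (-0.35 to 0.11).

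Among 17 further genes of VEGF, angiopoietin, apelin and Notch signalling, 4 fell and none rose in BALB CF lungs, and 3 fell and none rose in B6 CF lungs. In BALB these were Flt4, the VEGF-C receptor of lymphatic and some blood endothelium (-0.36, adjusted p = 0.00141), its ligand gene Vegfc (-0.43, adjusted p = 0.0117), Tie1, the partner receptor of Tek (-0.35, adjusted p = 0.0273), and Notch1 (-0.36, adjusted p = 0.0293). In B6 they were the apelin receptor gene Aplnr (-0.85, adjusted p = 0.0124), its ligand gene Apln (-0.30, adjusted p = 0.034) and Angpt2, a context-dependent ligand of Tek (-0.37, adjusted p = 0.0361). The strain difference of the effect passed for Flt4 (-0.40, adjusted p = 0.0189) and for Apln (0.46, adjusted p = 0.0279). Without the gut-high arrays none of the 4 BALB calls passed, at -0.32 for Flt4 (adjusted p = 0.0678), -0.44 for Vegfc (adjusted p = 0.0931), -0.18 for Tie1 and -0.15 for Notch1. Without the squamous-high arrays they did not pass either, at -0.27, -0.35, -0.41 and -0.39 in the same order (adjusted p of 0.0814 or more). The 3 B6 calls held in both settings, in each of which 3 more genes passed as lower, Flt1 and Ptprb in both with Tie1 or Dll4. The Flt4 strain difference was lost in both (-0.31 and -0.29, adjusted p = 0.113 and 0.206), and that of Apln held. The list medians were -0.14 in BALB and -0.11 in B6.

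Vwf, the multimeric protein that tethers platelets and carries clotting factor VIII, fell in BALB CF lungs. BALB females read 9.18, 9.31 and 9.15 in CF and 9.66, 9.47 and 9.88 in control lungs. BALB males read 9.46, 9.00 and 9.24 in CF and 9.59, 9.79 and 9.63 in control lungs. The highest CF array (9.46) lay just under the lowest control array (9.47). Vwf fell by 0.45 (SE 0.10, adjusted p = 0.00896), a ratio of 0.734. The difference was -0.32 without the arrays high in gut genes (adjusted p = 0.218), and without those high in squamous genes -0.44 (adjusted p = 0.064). With gut and squamous levels as covariates it was -0.46 (adjusted p = 0.257). In B6 it read 9.90, 9.74, 9.91, 9.93 and 10.18 in CF lungs and 9.76, 10.33, 10.30, 9.99, 10.02 and 9.98 in control lungs. The genotypes overlapped, with a difference of -0.11 (95% interval -0.32 to 0.10). The effects of the strains differed by -0.34 (95% interval -0.63 to -0.05), which did not pass (adjusted p = 0.234). Platelet and megakaryocyte genes, 8 in all, had no call by genotype in limma's fit of all arrays, with 1 at an unadjusted p under 0.05 in BALB and 0 in B6, and medians of -0.08 and 0.03. Without the gut-high arrays Ppbp, a platelet chemokine gene, was at -1.40 for CF in BALB, against -0.63 over all arrays.

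Thbd encodes thrombomodulin, the receptor that turns thrombin towards activating protein C, and in B6 the effect of CF on it differed between the sexes. B6 males read 10.25 and 10.26 in CF and 10.93, 10.89 and 10.83 in control lungs. B6 females read 10.92, 10.71 and 10.61 in CF and 10.53, 10.53 and 10.60 in control lungs. The males did not overlap, with CF lower, and the females just failed to overlap, with CF higher. In B6 males Thbd fell by 0.63 (SE 0.09, adjusted p = 0.00022), on 2 CF arrays, and in B6 females the difference was 0.19 (SE 0.08, adjusted p = 0.367). The female effect minus the male effect was 0.82 (SE 0.12, 95% interval 0.58 to 1.07, adjusted p = 0.0019), and it passed under all 34 alternatives. Of all probe sets 1.75% passed in that comparison, and Thbd was the 1 of 10 endothelial genes to do so. Over both sexes Thbd fell by 0.22 in B6 (SE 0.06, adjusted p = 0.0352), the mean of a female difference above 0 and a male one below 0, and this call was lost on leaving out any of 8 of the 11 B6 arrays (all but CF female 1, control female 1 and control male 3), with adjusted p up to 0.123. It was also lost without the arrays high in gut genes (-0.22, adjusted p = 0.0607) or in squamous genes (-0.24, adjusted p = 0.0548), with quantile normalization (adjusted p = 0.0569) and with the B6 groups alone in the fit (adjusted p = 0.0782). Heat shock genes moved with sex in the same lungs: their mean level was 8.75 and 9.09 in B6 CF males against a group mean of 10.20 in B6 control males, and 8.15 to 8.23 in B6 CF females and 7.73 to 9.28 in B6 control females, and 4 of the 8 passed for the sex difference of the effect. Their part in the Thbd result was not tested. In BALB Thbd read 10.40 to 10.59 (median 10.50) in CF and 10.40 to 10.67 (median 10.62) in control lungs, a difference of -0.08 (95% interval -0.19 to 0.04).

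Around Thbd and Vwf, 15 genes of haemostasis and vessel tone were measured. In BALB CF lungs 2 fell, Procr, the endothelial protein C receptor that works with thrombomodulin (-0.49, adjusted p = 0.00462), and Plat, tissue plasminogen activator (-0.59, adjusted p = 0.00927). Vcam1, a leukocyte adhesion molecule, rose there (0.32, adjusted p = 0.0419). In B6 CF lungs the single call was Ptgis, prostacyclin synthase, which rose by 0.33 (adjusted p = 0.00812) and whose CF effect differed between strains (-0.41, adjusted p = 0.0252). Of the 3 BALB calls none held without the gut-high arrays, at -0.31 for Procr (adjusted p = 0.327), -0.45 for Plat (adjusted p = 0.284) and 0.41 for Vcam1 (adjusted p = 0.171). Without the squamous-high arrays Plat held (-0.77, adjusted p = 0.0444), and Procr (-0.52, adjusted p = 0.0785) and Vcam1 (0.47, adjusted p = 0.0592) did not. Both Ptgis calls held in both settings. The list medians were -0.07 in BALB and 0.05 in B6.

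Flow-responsive transcription factors were among the genes whose CF effect differed between strains. Of 25 junction, surface and transcription genes, 5 fell and none rose in BALB CF lungs, led by Klf2 (-0.87, adjusted p = 0.00015) and Klf4 (-0.85, adjusted p = 0.000424), which respond to shear stress. Ramp2, the adrenomedullin co-receptor, and Tal1, a factor of blood and endothelial cells, fell too (-0.25 and -0.33, adjusted p = 0.0144 and 0.0417). In B6 CF lungs Klf2 and Ramp2 rose (0.47 and 0.23, adjusted p = 0.0285 and 0.0405), and none of the 25 fell. The difference between strains passed for Klf2 (-1.35, adjusted p = 0.000204), Klf4 (-1.20, adjusted p = 0.00129) and Ramp2 (-0.48, adjusted p = 0.00431). Klf2 held in BALB without the gut-high arrays (-0.82, adjusted p = 0.0389) and without the squamous-high ones (-1.12, adjusted p = 0.00222), and Klf4 held without the squamous-high ones (-0.93, adjusted p = 0.0109) but not without the gut-high ones (-0.75, adjusted p = 0.0741). Ramp2 in BALB was lost in both settings (-0.18 and -0.17, adjusted p = 0.436 and 0.35), as was Tal1 (-0.19 and -0.29, adjusted p = 0.473 and 0.185). In B6 Ramp2 was lost in both (adjusted p = 0.0583 and 0.0713) and Klf2 without the squamous-high arrays (0.50, adjusted p = 0.0606), and in each setting 2 genes passed as lower there, Tal1 in both with Robo4 or Mmrn2. The strain differences of Klf2 and Klf4 held in both settings and that of Ramp2 in neither (-0.40 in both, adjusted p = 0.0606 and 0.0584). Klf2 and Klf4 are also expressed in leukocytes and epithelium. Of 9 genes of capillary lipid handling, which share Gpihbp1's pathway, Lipg, the endothelial lipase, fell in BALB (-0.50, adjusted p = 0.0023), with -0.37 and no call without the gut-high arrays (adjusted p = 0.256). In B6 no gene of that list passed, 5 had an unadjusted p under 0.05, and the median was 0.25, against -0.16 in BALB. None passed for the strain difference of the CF effect (median -0.42, 6 at an unadjusted p under 0.05). Without the gut-high arrays that difference was -0.72 for Slc27a1, -0.90 for Lpl and -2.855 for Fabp4, against -0.42, -0.54 and -1.46. Slc27a1 was then at -0.48 in BALB, against -0.16, and at 0.24 in B6, against 0.25. Without the squamous-high arrays Angptl4 was at -1.55 in BALB males (adjusted p = 0.0474), against -0.82 over both sexes. Its strain difference was then -2.06 (adjusted p = 0.0409), against -1.15. The lymphatic marker Lyve1, a hyaluronan receptor, fell by 1.44 in BALB (adjusted p = 3.73e-05) with -0.19 in B6 (adjusted p = 0.658), and the difference between strains passed (-1.25, adjusted p = 0.00695). Both Lyve1 calls held without the gut-high and without the squamous-high arrays. Flt4 was the only other lymphatic gene of 6 to pass in BALB, and in B6 none did, with 0 at an unadjusted p under 0.05. Rgs5, a pericyte gene, fell by 0.82 in BALB (adjusted p = 0.0124), the 1 call among 9 pericyte and smooth muscle genes there, with none in B6 (1 at an unadjusted p under 0.05). Rgs5 kept its size but not its call without the gut-high arrays (-0.83, adjusted p = 0.179) and without the squamous-high ones (-0.88, adjusted p = 0.107).

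The epithelium that faces the capillaries was compared for scale. Of 9 alveolar type 1 genes, Rtkn2 fell in BALB (-0.30, adjusted p = 0.0324), and Igfbp2 (-0.68, adjusted p = 0.00209) and Akap5 (-0.41, adjusted p = 0.0292) fell in B6. The Rtkn2 call was lost without the gut-high or the squamous-high arrays (-0.14 and -0.13, adjusted p = 0.63 and 0.619), and the B6 calls held. The type 1 list medians were -0.08 in BALB and -0.15 in B6. In limma's fit 2 of the 9 had an unadjusted p under 0.05 in BALB and 5 in B6. Their mean level was 10.08 to 10.21 in B6 CF and 10.30 to 10.37 in B6 control lungs, with no overlap. In BALB it was 10.08 to 10.34 in CF and 10.12 to 10.33 in control lungs, with overlap. Of 8 alveolar type 2 genes none passed in either strain, with medians of -0.004 in BALB and -0.05 in B6. In limma's fit 0 of these 8 had an unadjusted p under 0.05 in BALB and 2 in B6. In B6, Abca3 passed as lower without the gut-high or the squamous-high arrays (-0.27 in both, adjusted p = 0.0131 and 0.0278), and Slc34a2 without the gut-high ones (-0.21, adjusted p = 0.0406).

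**Figure D3:**
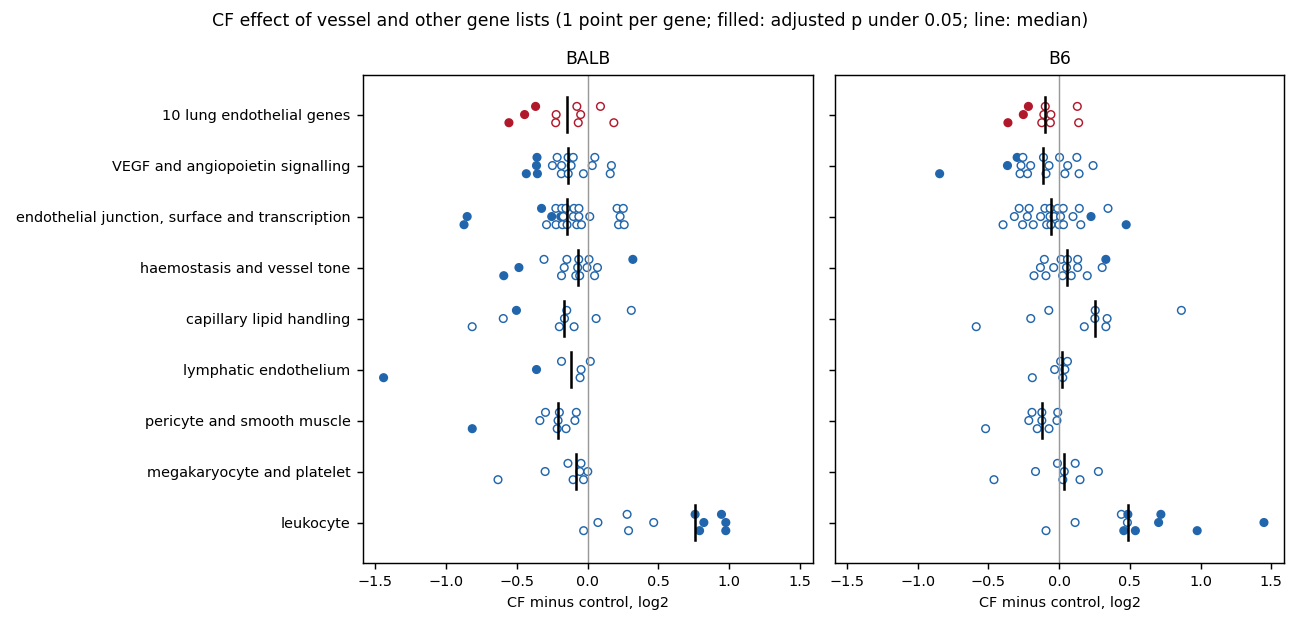
CF minus control (log2) for each gene of the endothelial list and of 8 other lists, 1 point per gene, BALB left and B6 right, with filled points at an adjusted p under 0.05 and a line at the list median. The 10 endothelial genes have medians of -0.15 and -0.10, while the leukocyte list has 0.76 and 0.49.

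By strain, 7 of the 10 endothelial genes passed in each genotype, 6 of them higher in BALB. Among controls 6 of the 10 genes were higher in BALB than in B6 lungs and Vwf was lower, and among CF mice again 6 were higher and Vwf lower. Among controls 7.46% of all probe sets passed as higher and 8.12% as lower, and of the equally bright genes 10.2% and 10.8%. Among CF mice these shares were 8.66% and 9.52%, and 11.1% and 13.2%. The median of the 10 genes was 0.28 in controls and 0.22 in CF mice, against 0.02 and 0.03 over all probe sets. Leaving out the arrays high in gut genes left 4 calls in controls and 6 in CF mice, and leaving out those high in squamous genes left 5 and 5. The BALB sequence at the probes was not examined, and 7 of the 10 genes have no further probe set to compare.

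Gpihbp1 had the widest gap between control lungs, 10.36 to 10.49 in BALB and 9.66 to 9.71 in B6, with no overlap (0.72, SE 0.06, adjusted p = 3.5e-08). Among CF lungs it read 9.83 to 10.21 in BALB and 9.58 to 10.01 in B6, which overlapped, and the difference was 0.21 (SE 0.07, adjusted p = 0.0371). This last call was lost on leaving out any of 6 CF arrays (B6 females 2 and 3, B6 male 2, BALB female 2, BALB males 2 and 3), with adjusted p up to 0.261. Without B6 CF male 2 the difference was 0.13, without the arrays high in gut genes 0.21 (adjusted p = 0.0687), and without those high in squamous genes 0.27 (adjusted p = 0.144). It was lost too with the CF groups alone in the fit (adjusted p = 0.13), with median centring (adjusted p = 0.0663) and with gut and squamous covariates (adjusted p = 0.153). Plvap was higher in BALB controls (0.34, SE 0.07, adjusted p = 0.0017) and did not pass among CF lungs (0.15, adjusted p = 0.208), and without the arrays high in gut genes the control difference was 0.23 (adjusted p = 0.175).

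Car4 was higher in BALB in both genotypes. Among controls all 6 BALB arrays (9.61 to 9.80) lay above all 6 B6 arrays (9.08 to 9.25), and both probe sets gave the same size (0.54 and 0.55, adjusted p = 3.15e-07 for the brighter). Among CF lungs the ranges just touched, at 9.61 to 9.72 in BALB and 8.94 to 9.61 in B6 (0.36, SE 0.06, adjusted p = 0.000131). The difference was 0.55 in males alone, the comparison left without the squamous-high arrays. Ednrb did not differ past the threshold between control lungs (0.05, 95% interval -0.10 to 0.20) and was higher in BALB CF than in B6 CF lungs by 0.29 (SE 0.08, adjusted p = 0.00878), with its other probe sets at 0.33 and 0.39. The Ednrb call was lost without B6 CF male 1 (0.25, adjusted p = 0.0697) and with gut and squamous covariates (0.29, adjusted p = 0.0531). In males alone, without the squamous-high arrays, the Ednrb difference was 0.48 (adjusted p = 0.01).

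Tek was higher in BALB lungs of both genotypes with no overlap: 9.92 to 10.12 against 9.40 to 9.66 among CF lungs (0.50, SE 0.07, adjusted p = 2.07e-05) and 10.07 to 10.37 against 9.49 to 9.93 among controls (0.47, SE 0.07, adjusted p = 2.3e-05). Kdr was higher in BALB among CF lungs, again with no overlap, by 0.54 (SE 0.11, adjusted p = 0.00119). Among controls Kdr differed by 0.32 (SE 0.10, adjusted p = 0.0372), and this call was lost on leaving out any of 7 control arrays (B6 female 1, B6 males 1 and 2, BALB females 1 and 3, BALB males 2 and 3), with adjusted p up to 0.109. It was 0.16 without the arrays high in gut genes (adjusted p = 0.527), and without those high in squamous genes 0.25 (adjusted p = 0.0984). Quantile normalization (adjusted p = 0.0561) and gut and squamous covariates (0.38, adjusted p = 0.113) lost it as well. The promoters of Tek, Kdr, Car4 and Ednrb printed above belong to these differences, but they are of the B6 reference and show no BALB sequence.

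Pecam1 was higher in BALB by 0.24 in both genotypes (adjusted p = 0.02 among CF lungs and 0.0138 among controls). Among CF lungs the ranges did not overlap, at 9.99 to 10.14 in BALB and 9.69 to 9.96 in B6, yet the call was lost without B6 CF female 3 or B6 CF male 1 (adjusted p = 0.0624 and 0.109) and without the arrays high in squamous genes (0.28, adjusted p = 0.118). Among controls Pecam1 was at 0.13 (adjusted p = 0.416) without the arrays high in gut genes and at 0.22 (adjusted p = 0.0644) without those high in squamous genes, and at 0.16 (adjusted p = 0.333) with both levels as covariates. Cdh5 did not pass in either genotype (0.03 among CF lungs, 95% interval -0.22 to 0.29, and 0.16 among controls, -0.08 to 0.40). Thbd was at -0.00 among CF lungs (-0.13 to 0.12) and at -0.15 among controls (-0.26 to -0.03, adjusted p = 0.0813).

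Vwf was the 1 endothelial gene lower in BALB. Among CF lungs it read 9.00 to 9.46 in BALB and 9.74 to 10.18 in B6, with no overlap (-0.73, SE 0.10, adjusted p = 1.64e-05), and among controls 9.47 to 9.88 in BALB and 9.76 to 10.33 in B6 (-0.39, SE 0.10, adjusted p = 0.00628). The control difference was -0.61 (adjusted p = 0.00135) without the gut-high arrays, and with gut and squamous covariates it was -0.36 and lost the call (adjusted p = 0.0908). Megakaryocyte and platelet genes also passed as lower in BALB, 6 of 8 among CF lungs and 5 of 8 among controls, and none passed as higher. Their mean level was 5.51 to 6.21 in BALB CF and 6.21 to 7.21 in B6 CF lungs, and 5.68 to 6.37 in BALB control and 6.08 to 7.18 in B6 control lungs. Itgb3, the platelet integrin beta 3, differed by -1.10 among CF lungs and by -1.24 among controls, and Ppbp, a platelet chemokine gene, by -1.90 and -1.73. Without the squamous-high arrays 1 of the 8 (Itgb3) passed as lower among CF males, with Ppbp at -1.28 (adjusted p = 0.0504), and 5 did among controls of both sexes. Without the gut-high arrays the counts were 6 and 2, with Ppbp at -1.08 among controls. The part of these genes in the Vwf difference was not tested.

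The wider vessel lists were also split by strain. Of 17 VEGF and angiopoietin genes, 8 were higher and 1 lower in BALB among CF lungs, and 9 and 1 among controls. Without the gut-high arrays 3 were higher and 1 lower among controls, and without the squamous-high ones 6 and 2. Dll4, the Notch ligand of arterial and sprouting endothelium, was higher in BALB by 0.93 among CF lungs and by 0.81 among controls (adjusted p = 3.65e-07 and 1.1e-06). Notch4, an endothelial Notch receptor, was higher in BALB controls by 0.64 (adjusted p = 9e-06), and by 0.42 without the gut-high arrays (adjusted p = 0.0215). Of 25 junction, surface and transcription genes, 6 were higher and 5 lower among CF lungs, and 7 and 2 among controls. Without the gut-high arrays the counts were 8 and 5 among CF lungs and 2 and 1 among controls, and without the squamous-high ones 4 and 3, and 6 and 2. Eng, an endothelial co-receptor of TGF-beta signalling, was higher by 0.47 in BALB controls (adjusted p = 8.38e-05), with 0.27 and no call without the gut-high arrays (adjusted p = 0.0543). Procr, the protein C receptor that pairs with thrombomodulin, was higher in BALB by 1.50 among CF lungs and by 1.90 among controls (adjusted p = 3.5e-10 and 2.4e-12), a wider strain gap than that of any of the 10 endothelial genes. Plat was lower in BALB in both genotypes, at -1.13 among CF lungs and -0.49 among controls (adjusted p = 2.32e-06 and 0.011), the control difference being lost without the squamous-high arrays (-0.46, adjusted p = 0.0527). Of 9 capillary lipid genes, 5 were lower and none higher among CF lungs, and 2 were lower among controls, opposite in direction to Gpihbp1. Among controls none of these lipid genes was lower without the gut-high arrays and 1 (Fabp4) was higher, and among CF lungs 3 were lower without the squamous-high ones. Rgs5 and Cspg4, pericyte genes, were higher in BALB in both genotypes, Rgs5 by 1.04 among CF lungs and 1.33 among controls. Without the squamous-high arrays Rgs5 was at 0.52 among CF males and did not pass (adjusted p = 0.334).

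Sex gave few calls beyond Thbd. In limma's fit 0 of 10 genes passed for female minus male in controls, where 2.43% of all probe sets did, and 1 of 10 had an unadjusted p under 0.05. For the sex difference of the CF effect in BALB 0 of 10 passed, 0 had an unadjusted p under 0.05 and 0.0178% of all probe sets passed. Within single sexes, Plvap was the gene called most often. It passed in BALB females (-0.47, SE 0.10, adjusted p = 0.0309), BALB males (-0.64, SE 0.10, adjusted p = 0.00176) and B6 males (-0.48, SE 0.11, adjusted p = 0.0138), and was at -0.25 in B6 females (adjusted p = 0.388). Gpihbp1 was at -0.36 in BALB females (adjusted p = 0.0537) and fell by 0.37 in BALB males (adjusted p = 0.038). In all 1 of 10 genes passed in BALB females, 2 in BALB males, 0 in B6 females (5 with an unadjusted p under 0.05) and 2 in B6 males, against 1.19%, 1.93%, 0.815% and 6.24% of all probe sets.

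The 10 genes did not share 1 order of groups. Vwf spanned the widest range of group means, 0.92, from 9.21 ± 0.08 in BALB CF females to 10.13 ± 0.32 in B6 control females (SD, n = 3 each). Plvap spanned 0.87, with 10.65 ± 0.03 in BALB control females (SD, n = 3) as the highest and 9.78 ± 0.01 in B6 CF males (n = 2) as the lowest. Tek spanned 0.86 between the same groups, and Gpihbp1 0.75 between BALB control females and B6 control males. Neighbours in these orders mostly lay within the larger of their SDs. Of the 7 gaps between neighbouring groups, 4 were wider than that for Tek, 3 each for Plvap, Car4, Thbd and Vwf, 2 for Pecam1, 1 each for Gpihbp1 and Ednrb, and 0 for Kdr and Cdh5. Cdh5 had the narrowest span, 0.29, from 9.40 ± 0.12 in BALB control males to 9.11 ± 0.14 in B6 CF females (SD, n = 3 each).

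Within groups, several of the endothelial genes varied together from array to array. After subtraction of the group means, Cdh5 and Kdr correlated at 0.83 over the 23 arrays, Plvap and Tek at 0.79, Cdh5 and Vwf at 0.78, Kdr and Tek at 0.76, and Pecam1 and Thbd at 0.69. Gpihbp1 and Car4 stood apart, with mean correlations of -0.07 and -0.04 with the other 9 genes, against 0.42 for Kdr and 0.39 for Tek. These values are descriptions, over 23 arrays that share 1 normalization and the subtracted means. B6 control female 1, the array with the widest joint deviation, carried part of them. It was 0.38 under its group mean for Cdh5, 0.37 for Kdr and 0.37 for Vwf, and it was also high in gut, squamous and muscle genes. Without it Cdh5 and Kdr correlated at 0.75, Cdh5 and Vwf at 0.66, Plvap and Tek at 0.66, and Kdr and Tek at 0.59. Other pairs rested on that array more. Tek and Vwf correlated at 0.57 over all arrays, against 0.18 without it, Cdh5 and Tek at 0.59 against 0.34, Plvap and Cdh5 at 0.55 against 0.34, and Plvap and Vwf at 0.68 against 0.48. BALB control female 2 was also low in Cdh5 and Kdr, by 0.47 and 0.23, without high levels of those lists.

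**Figure D4:**
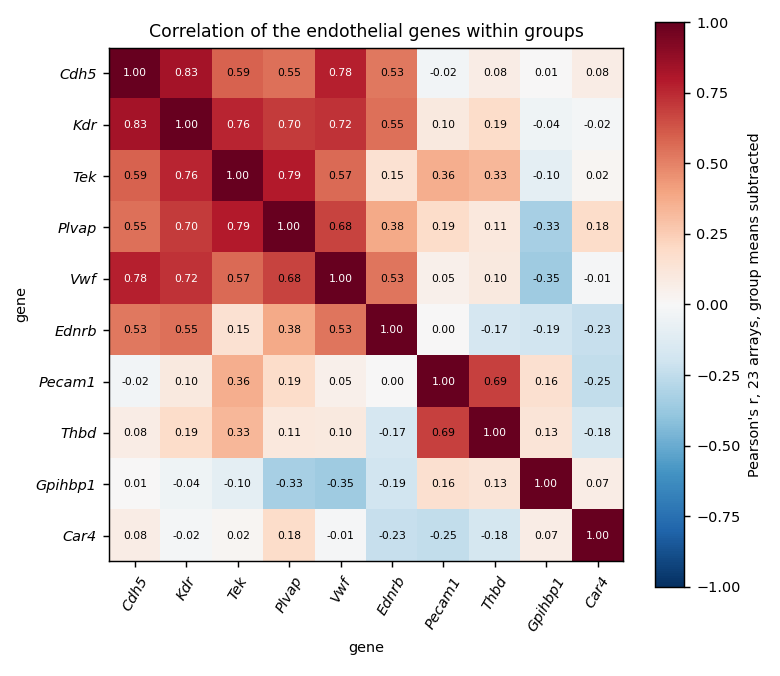
Pearson's correlation between each pair of the 10 endothelial genes over 23 arrays after the group means were subtracted. Cdh5, Kdr, Tek, Plvap and Vwf have values of 0.55 to 0.83 with one another, which are 0.18 to 0.75 without B6 control female 1, Pecam1 and Thbd pair at 0.69, and Gpihbp1 and Car4 lie between -0.35 and 0.18 with all others.

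Genes with the most similar pattern were ranked by their mean correlation with the 10 over the same arrays, among 11624 other genes of at least median brightness. The highest were Arhgef17 (0.51), Trim35 (0.50), Dpysl2 (0.49), Pxdn (0.49), a matrix peroxidase, and Robo4 (0.48), an endothelial guidance receptor. Arhgef17 ranged from 0.09 to 0.93 in its correlation with the single genes.

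**Figure D5:**
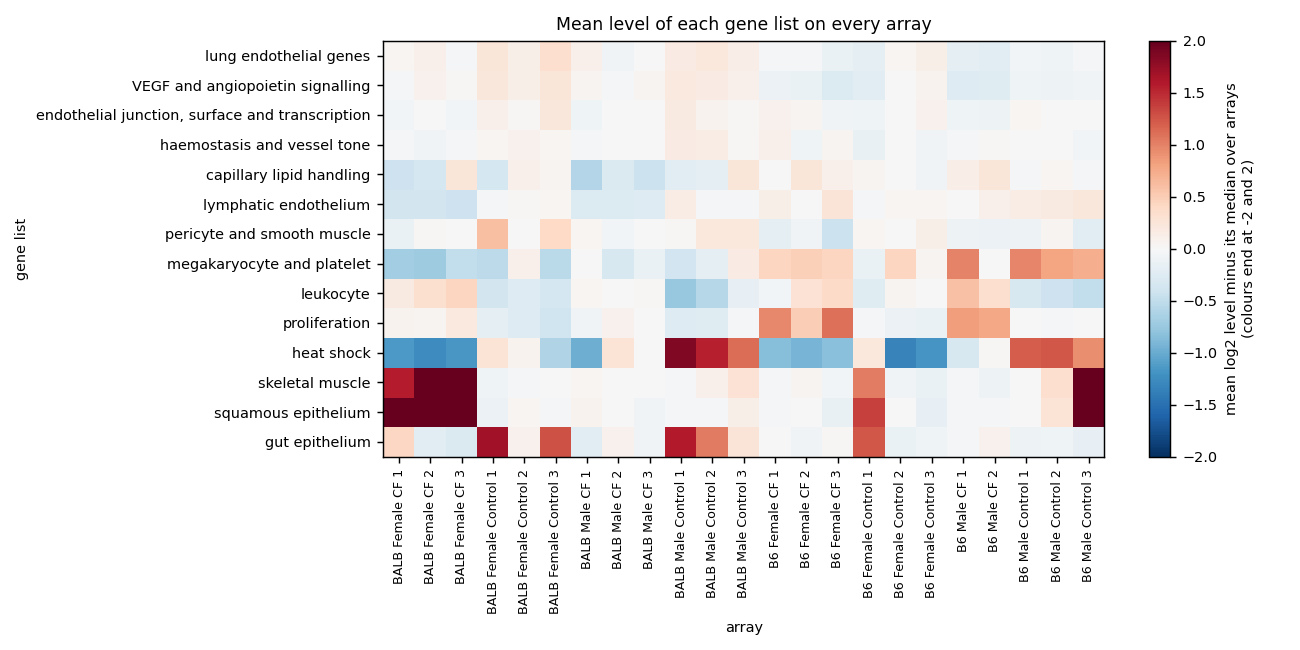
Mean log2 level of each gene list on every array minus its median over the arrays, with colours ending at -2 and 2, BALB arrays left and B6 arrays right. The endothelial band stays pale, since the mean of the 10 genes lay between 9.44 and 9.99 on all arrays, while squamous and muscle genes stand out on BALB CF females and B6 control male 3, gut genes on 5 control arrays, and heat shock genes on control males.

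The mean level of the 10 genes was 9.59 to 9.77 in BALB CF and 9.78 to 9.99 in BALB control lungs, with no overlap. In B6 it was 9.44 to 9.64 in CF and 9.48 to 9.78 in control lungs, with overlap. That level is given as a description, and no test was run on it.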

How the data were processed

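The values are the authors' deposited log2 signals of Affymetrix mouse probe sets on 23 arrays, 1 per lung sample. The log base was inferred from their range, and no source used here names the summarisation or normalization. Array medians were 4.56 to 4.64. Of 45101 probe sets, 64 controls were left out. A group-means model over all 8 groups was fitted to 45037 probe sets with limma 3.58.1 in R 4.3.3 (15 residual and 5.81 prior degrees of freedom), with Benjamini-Hochberg adjustment over all of them in each comparison and a threshold of 0.05. The effect of CF in a strain is the mean of the female and male effects. Each gene is read from its brightest probe set with 1 symbol in the platform annotation.

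The 10 genes and the gene lists were chosen with earlier results of these data known. The 10 genes are all named, and so are up to 4 genes of a list with the lowest p-values in a comparison. Genes named beyond these 4 were chosen after their values were seen. Genes alike in pattern are the 5 with the highest mean correlation. The model was tested on simulated data. Alternatives changed scaling, filter, spread estimate, array weights, probe set choice, the arrays used and a block for replicate number. With 3 arrays against 3 an exact permutation test cannot go below a two-sided p of 0.1, so none was used, and the number of arrays limits the precision. Motif letters were searched on both strands of the RefSeq promoters.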

Additional observations from a re-analysis of the deposited data

Results flagged for a closer look

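Gpihbp1 on BALB control female 3 stood at 10.49, above the other 5 BALB control arrays, which lay between 10.36 and 10.41, by a gap that is wide for the range of the 6. This check was made on 40 sets of arrays (10 genes in 4 combinations of strain and genotype) and marked 1, where chance marks about 5%. That array also held high levels of gut genes. Their part in the value was not tested.

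The effect of CF on Thbd in B6 differed between the sexes by 0.822 (female minus male), with CF arrays above controls in females and below them in males. The effect of CF on Gpihbp1 differed between the strains by -0.505 (BALB minus B6). Both differences were tested as interaction terms with limma.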

How the results depend on the processing

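Of 2700 recomputed results of the 10 genes, 2616 kept their side of the threshold, 70 lost the call and 14 gained one. No result past the threshold in either setting changed direction, and 93 that passed in neither changed sign. Of these, Thbd for CF in BALB without the squamous-high arrays (0.02, against -0.08) sets males alone against the mean of both sexes. Leaving out 1 array at a time gave 1 to 3 calls among the 10 genes for CF in B6, 3 to 4 for CF in BALB, 1 to 1 for the strain difference of the CF effect, 6 to 7 between strains in controls, 5 to 7 between strains in CF mice, 1 to 1 for the sex difference of the CF effect in B6, 0 to 0 for that in BALB and 0 to 0 between the sexes in controls. With the groups of the comparison only, CF in B6 gave 1 call in place of 3. The mean of all probe sets of a gene gave 5 calls for CF in BALB in place of 3, 4 lower (Tek added) and 1 higher (Ednrb). Array weights gave 1 call between the sexes in controls (Kdr, 0.30, adjusted p = 0.0386) in place of 0. In these cases the cause was not tested. The next alternatives were chosen after seeing the data. With gut and squamous levels as covariates, CF in BALB gave 1 call, the strain difference of the CF effect 0 and controls between strains 4. Without the arrays high in gut genes these counts were 1, 0 and 4, and without those high in squamous genes CF in BALB gave 1, with fewer arrays in both settings. Leaving out the gut-high arrays keeps 1 BALB control array in each sex. Leaving out the squamous-high arrays keeps no BALB CF females, so it gives no sex difference of the CF effect in BALB. Its CF effect in BALB rests on males, and its strain difference in CF mice on males of both strains. Replicate numbers are shared between groups, but the 77 same-numbered pairs had a mean correlation of deviations of 0.02 (-0.18 to 0.35), and 9 of 23 arrays correlated best with their own number, so the numbers were not taken to pair arrays. With the replicate block, CF in B6 gave 2 calls, without Tek (adjusted p = 0.0618), and controls between strains 6, without Kdr (adjusted p = 0.0511), and the other 6 counts were unchanged. The number of arrays, 2 or 3 in a group, limits what can be detected. Whole lung gives no value per cell, and most genes rest on 1 probe set.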

Other observations

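Lymphatic and ligand genes outside the 10 also differed by strain. Of 6 lymphatic genes, 3 were lower and none higher in BALB than in B6 CF lungs: Lyve1 by -1.34 (adjusted p = 6.22e-06), Mmrn1, an extracellular matrix protein also held in platelets, by -0.87 (adjusted p = 2.11e-06), and Reln by -0.41 (adjusted p = 0.00017). Among controls Mmrn1 and Reln were lower too (-0.63 and -0.33), and Lyve1 was at -0.09 (adjusted p = 0.799). Vegfc, a lymphatic growth factor, was lower in BALB by -0.94 among CF lungs and by -0.51 among controls, while the apelin receptor gene Aplnr was higher, by 1.29 and 0.63. The Aplnr control difference was lost without the gut-high arrays (0.49, adjusted p = 0.286) and without the squamous-high ones (0.55, adjusted p = 0.0532), and among CF lungs it was 0.83 without the squamous-high ones. The Reln control difference was lost without the gut-high arrays (-0.29, adjusted p = 0.0712), and Mmrn1 was at -0.52 among CF lungs without the squamous-high ones. Angptl4, an inhibitor of lipoprotein lipase, was at -1.83 among CF lungs (adjusted p = 0.000133) and at -0.68 among controls (adjusted p = 0.122).

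In B6 the effect of CF on some vessel genes besides Thbd differed between the sexes. The female effect minus the male effect was 0.61 for Flt1, a VEGF receptor (adjusted p = 0.0489), 0.50 for Ramp2 (adjusted p = 0.0431) and -0.82 for Angpt2 (adjusted p = 0.0372). Flt1 and Ramp2 were lost without the gut-high arrays (adjusted p = 0.0505 and 0.0512) and without the squamous-high ones (adjusted p = 0.178 and 0.0879), and Angpt2 held in both settings. S1pr1, at 0.72 over all arrays with no call, passed without the squamous-high arrays (0.99, adjusted p = 0.0388). Without the gut-high ones S1pr1 was at 0.94, given as a size only. Without the gut-high arrays Lyve1 was at 1.37, Angptl4 at 1.85 and Slc27a1 at -0.65, again sizes only, against 1.22, 1.51 and -0.63. Of 8 heat shock genes 4 passed in the same comparison, Hsp90aa1 by 1.14 (adjusted p = 0.0131), and all 8 were lower in female than in male controls. Hspe1, at 0.99 over all arrays, passed too without the squamous-high arrays (1.20, adjusted p = 0.0377). Without the gut-high ones Hspe1 was at 1.16, given as a size only. The part of the heat shock genes in these results was not tested.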
